A study of Mus musculus with 2 samples.

Results

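Single cells of mouse dorsal skin that carried transcripts of *Krt75* were examined in 1 wildtype and 1 *Eppk1*-/- library. *Krt75* cells were selected on their own counts, as cells with at least 3 *Krt75* UMIs and with less than 0.5% of their UMIs from *Col1a1*, *Col1a2*, *Col3a1* and *Dcn*. A UMI (unique molecular identifier) marks 1 counted molecule. The rule found 71 *Krt75* cells among 17492 cells that passed the cell filter, 58 of 8875 in the wildtype library and 13 of 8617 in the *Eppk1*-/- library. Wildtype skin came from a C57BL/6J mouse, and *Eppk1*-/- skin from a mouse without epiplakin that had been backcrossed to C57BL/6J. Neither animal was treated, and the labels give no age. Whole punches of dorsal skin were dissociated, so that epidermis, hair follicles and dermis were all present. RNA was read by hybridised probes in fixed cells, and each library carried its own probe barcode before the cells were pooled.

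Each genotype rests on a single mouse. No test between genotypes is therefore possible, and every interval given here is a 95% interval that covers counting error only. Because the cells were chosen by *Krt75*, the comparison with other keratinocytes is a description without a test. The other keratinocytes were 5432 wildtype and 4031 *Eppk1*-/- cells with at least 1% of UMIs from *Dsp*, *Perp*, *Sfn*, *Krt5*, *Krt14*, *Krt15* and *Krt10*, under the same collagen limit. Levels are given as CPM, the UMIs of a gene summed over a set of cells and divided by all their UMIs apart from mitochondrial genes, times 1000000. Ratios are log2 ratios of CPM with 0.5 UMI added to each sum.

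The companion layer is a single sheet of cells between the inner and the outer root sheath of the growing hair follicle, and keratin 75 is its classical keratin, usually found with keratin 6 and keratin 17. In resting follicles an inner layer of the bulge that lines the club hair carries keratin 6 and is known as a source of FGF18 and BMP6, signals that act on the neighbouring stem cells. Type II keratins such as *Krt75*, *Krt6a*, *Krt6b* and *Krt5* pair with type I keratins such as *Krt17*, *Krt16*, *Krt15* and *Krt14* to form filaments, which plakins tie to desmosomes and hemidesmosomes.

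The promoters of *Krt75*, which chose the cells, and of *Fgf18*, a secreted signal that was high in them, are shown here for reference, since both genes were high in the same cells. Both are printed 5′ to 3′ on the gene's strand from 250 bases before to 50 after the RefSeq start site (GRCm38.p6), and capitals mark a word resembling the TATA box.
*Krt75* (chr15:101573855-101574154, minus strand): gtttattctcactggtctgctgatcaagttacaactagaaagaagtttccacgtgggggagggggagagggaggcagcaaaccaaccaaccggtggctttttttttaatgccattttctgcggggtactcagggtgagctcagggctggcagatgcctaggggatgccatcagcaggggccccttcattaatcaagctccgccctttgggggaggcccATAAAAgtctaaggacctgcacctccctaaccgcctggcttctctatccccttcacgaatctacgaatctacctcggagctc
*Fgf18* (chr11:33147351-33147650, minus strand): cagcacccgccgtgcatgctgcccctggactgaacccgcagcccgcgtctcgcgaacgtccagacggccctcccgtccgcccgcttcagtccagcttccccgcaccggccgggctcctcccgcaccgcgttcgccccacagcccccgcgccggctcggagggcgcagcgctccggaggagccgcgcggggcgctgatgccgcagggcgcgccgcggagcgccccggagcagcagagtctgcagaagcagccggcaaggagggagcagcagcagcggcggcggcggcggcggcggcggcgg
The letters searched were ATAAAA. The *Krt75* window held them once, starting 32 bases before the start site, and had 53.7% G and C. The *Fgf18* window held none and had 78.7% G and C, against a median of 52.7% over 32851 promoters. On either strand, 18.5% of all promoters held that word. A second word, ACAAT, the core bound by SOX factors, was in neither window and in 31.0% of all promoters on either strand. The words were counted separately. Of the 4 genes looked up, *Krt75*, *Fgf18*, *Krt6a* and *Krt6b*, 2 matched the promoter table.

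*Krt75* cells made up 0.654% of kept cells in the wildtype library (exact interval 0.497% to 0.844%) and 0.151% in the *Eppk1*-/- library (0.0804% to 0.258%). Among keratinocytes alone their shares were 1.06% (0.803% to 1.36%) and 0.321% (0.171% to 0.549%). The share was lower in the knockout library by both denominators, and the intervals did not overlap. With 1 mouse per genotype, a difference between animals, follicles or punches cannot be told apart from one between genotypes.

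The UMI totals of wildtype *Krt75* cells ran from 918 to 35697 with a median of 5212, against a median of 4524 in other keratinocytes. *Eppk1*-/- *Krt75* cells ran from 1839 to 17943 with a median of 3079, against 4562. The median share of mitochondrial UMIs was 0.681% in wildtype *Krt75* cells and 0.326% in other keratinocytes, and 0.543% and 0.268% in the knockout library. Of the droplet barcodes, 1211 occurred in both libraries, and 5 wildtype and 3 *Eppk1*-/- *Krt75* cells lay in such droplets. Stray *Krt75* UMIs were rare. Fibroblasts were taken as cells with at least 2% of UMIs from the collagen genes and under 1% from the keratinocyte genes. Among them, 4 of 1515 wildtype cells (0.264%) and 1 of 2553 *Eppk1*-/- cells (0.0392%) held a *Krt75* UMI. Their median depths were 6406 and 6157 UMIs. Of the 4 wildtype cells, 2 held at least 3 *Krt75* UMIs and were kept out of the *Krt75* cells by the collagen limit. Among other keratinocytes the counts were 44 (0.810%) and 25 (0.620%).

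The label for these cells names 3 markers, *Krt75*, *Krt6b* and *Krt17*, and of the 2 that did not choose the cells, *Krt6b* had few UMIs and *Krt17* was lower than in other keratinocytes. *Krt75* itself lies on chromosome 15 (mm10, 101563345 to 101573904) within the type II keratin cluster. It had 1779 CPM in wildtype *Krt75* cells, with 3 UMIs in the lowest cell, a median of 7 and 142 in the highest, and 1415 CPM in *Eppk1*-/- *Krt75* cells, with a median of 5 and at most 17. Those values follow from the rule.

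*Krt6b* (chromosome 15, 101676023 to 101680287) was close to absent. It had 7 UMIs in 5 of the 58 wildtype cells (15.7 CPM, interval 6.31 to 32.3), 17 UMIs in all other wildtype keratinocytes together (0.478 CPM), and 0 UMIs in the *Eppk1*-/- *Krt75* cells, where 3 counts would be 43.8 CPM. The wildtype log2 ratio of 5.09 (3.52 to 6.38) rests on those 7 UMIs. *Krt17* (chromosome 11, 100256217 to 100261029), a type I keratin of the outer root sheath and companion layer, was lower in *Krt75* cells than in other keratinocytes. It had 836 CPM against 1655 CPM in the wildtype library (log2 ratio -0.98, -1.14 to -0.84) and 700 CPM against 1550 CPM in the *Eppk1*-/- library (-1.13, -1.59 to -0.74). Without the *Eppk1*-/- cell with hair cuticle transcripts, described below, the knockout level was 948 CPM (-0.69, -1.15 to -0.30). The wildtype cells ranged from 0 to 58 *Krt17* UMIs with a median of 2. A UMI was found in 72.4% of them and in 59.8% of other keratinocytes. Cells with at least 3 *Krt79* UMIs held 29663 of the 58846 *Krt17* UMIs of other wildtype keratinocytes (6411 CPM). Of the other sets described below, *Krt1* and *Krt10* cells had 425 CPM, *Cd34*, *Lgr5*, *Lhx2* and *Nfatc1* cells 1259 CPM and the rest 1210 CPM. Because *Krt6b* had few UMIs and wildtype *Krt17* lay within the range of the other sets, the cells are called *Krt75* cells here. The name companion layer cells is not used for them.

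*Krt6a* (chromosome 15, 101689910 to 101694307), the neighbour of *Krt6b* in the type II cluster, was high where *Krt6b* was not. Wildtype *Krt75* cells had 4179 CPM against 249 CPM, a log2 ratio of 4.07 (4.0 to 4.14), with a UMI in 57 of 58 cells, a median of 18 and a highest of 294. *Eppk1*-/- *Krt75* cells had 1429 CPM against 177 CPM, a log2 ratio of 3.02 (2.71 to 3.30), with a UMI in 10 of 13 cells. The reference transcripts *Krt6a-201* and *Krt6b-201* were identical at 2071 of 2224 aligned bases (93.1%), whereas *Krt75-201* and *Krt6a-201* shared 75.2%. Which probes read each gene is not given in the sources used here, so the split of reads between *Krt6a* and *Krt6b* is uncertain.

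Across all genes the differences were wide. A gene counted as measured when both sets of cells together held at least 50 of its UMIs and at least 25% of the cells of either set held one. In the wildtype library 793 of 4671 such genes (17.0%) were at least 1 log2 unit higher in *Krt75* cells and 692 (14.8%) at least 1 lower. Of 4010 genes in the *Eppk1*-/- library, 807 (20.1%) were higher and 1091 (27.2%) lower. The median log2 ratio was -0.01 and -0.17. The knockout split of 807 higher and 1091 lower depended on the setting. It was 632 and 1322 after scaling by trimmed means (TMM) and 955 and 933 after centring on the median. Without the deepest *Eppk1*-/- cell it was 1286 and 963, and after thinning every cell to 2000 UMIs it was 795 and 456. With the UMI limit alone, and genes at 0 judged by 3 counts, 20.8% of 11391 wildtype genes were higher and 13.4% lower, against 24.9% and 11.1% of 10768 genes in the knockout library. Of the 793 wildtype genes higher in *Krt75* cells, 784 reached 50 UMIs in the knockout library, and 555 of these (70.8%) were also at least 1 log2 unit higher there. Of the 692 lower genes, all of which reached 50 UMIs, 496 (71.7%) were also at least 1 lower. The counts of measured genes, and the 555 and 496, used the ratio with 0.5 UMI added. Genes at 0 UMIs in *Krt75* cells were not held to the limit of 3 counts there. Some of the genes counted, among the 1091 and the 496 above all, may therefore not reach 1 log2 unit under that limit. The 2 libraries are different mice with no cells in common.

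Genes of the list for the companion layer and inner bulge other than the keratins already given were high except *Krt16*. *Fgf18*, a secreted fibroblast growth factor, had 941 CPM in wildtype *Krt75* cells against 24.6 CPM in other keratinocytes (log2 ratio 5.26) and was found in 46 of 58 cells. In the knockout library it had 890 CPM against 23.9 CPM (5.23) and was found in 9 of 13 cells. *Bmp6*, a secreted bone morphogenetic protein, had 370 CPM against 12.2 CPM in wildtype cells (4.92) and 263 CPM against 11.1 CPM in *Eppk1*-/- cells (4.60). *Timp3*, an inhibitor of matrix metalloproteinases, had log2 ratios of 3.96 and 3.24. *Krt16*, the usual partner of keratin 6 in stressed epidermis, went the other way, with 356 CPM against 1762 CPM in wildtype cells (-2.30) and 4 UMIs in *Eppk1*-/- cells (58.3 CPM against 1334 CPM, -4.34). Of the 8 list genes, *Krt6b* had too few UMIs, and 5 of the other 7 were at least 1 log2 unit higher in both libraries, *Krt75* among them by choice, beside 17.0% of all wildtype and 20.1% of all *Eppk1*-/- genes. In each library 4 of the 7 reached the limit on cells only through *Krt75* cells, so the count is no more than a description.

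**Figure D1:**
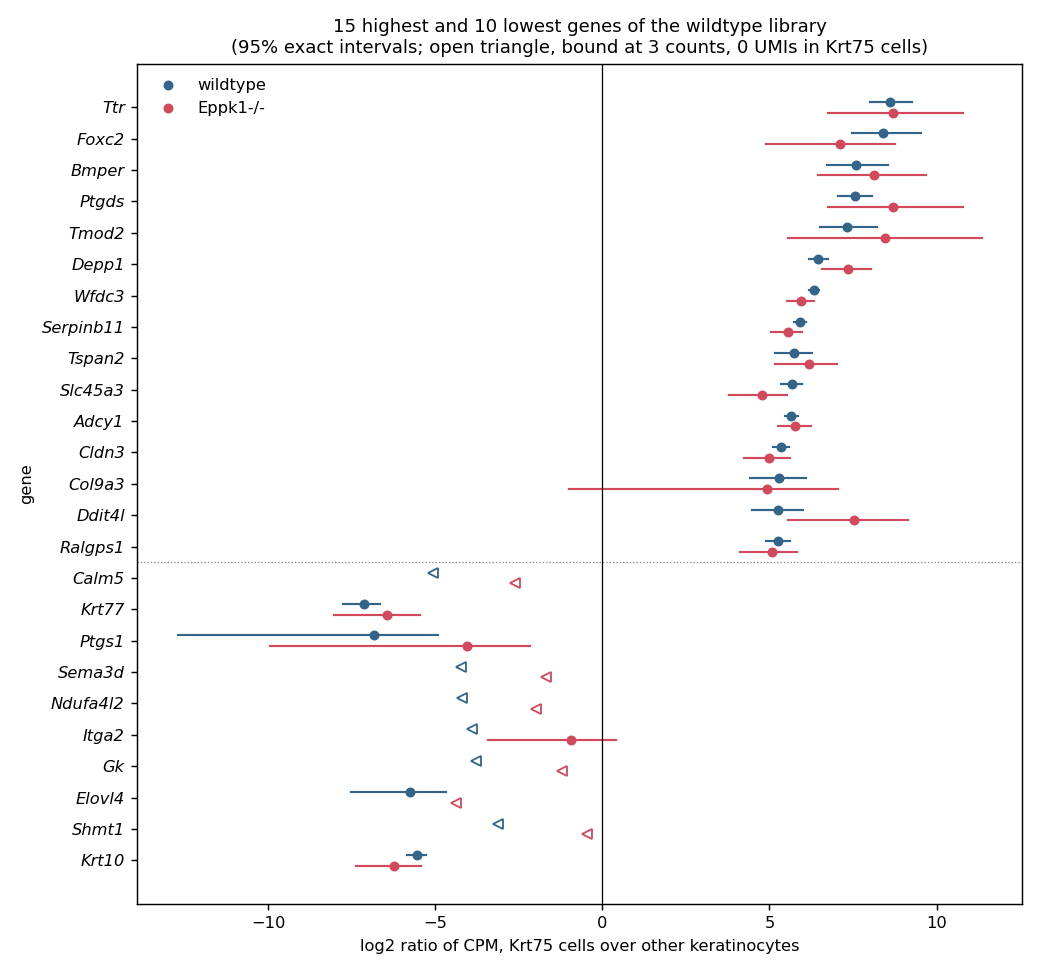
Log2 ratio of CPM in *Krt75* cells over other keratinocytes (x axis) for the 15 highest and 10 lowest measured genes of the wildtype library (y axis), with points and 95% exact intervals for wildtype (blue) and *Eppk1*-/- (red). Open triangles give the bound set by 3 counts where *Krt75* cells held 0 UMIs. All 15 high genes lie right of 0 in both libraries, with the interval of *Col9a3* in *Eppk1*-/- cells crossing 0.

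The 15 measured genes with the highest wildtype ratios after *Krt75*, all found in at least 25% of the wildtype *Krt75* cells, included secreted proteins, carriers and signalling enzymes. *Ttr*, the carrier of thyroid hormone and retinol-binding protein, had 138 UMIs in 38 of 58 wildtype *Krt75* cells (309 CPM) and 28 UMIs in all other keratinocytes (0.788 CPM), a log2 ratio of 8.6. *Foxc2*, a forkhead transcription factor, followed with 108 CPM against 0.309 CPM (8.39). *Bmper*, a secreted modulator of BMP signals, had a log2 ratio of 7.58. *Ptgds*, which makes prostaglandin D2, had 249 CPM against 1.32 CPM (7.55), and *Tmod2*, a tropomodulin that caps actin filaments, had 7.33. *Ptgds* was found in 35 of 58 cells, *Foxc2* in 24, *Tmod2* in 20 and *Bmper* in 19.

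*Wfdc3* and *Serpinb11* are both from families of protease inhibitors. *Wfdc3* had 1835 CPM against 22.8 CPM (log2 ratio 6.33) and was found in 55 of 58 cells, with a median of 8 UMIs and a highest of 80. *Serpinb11* had 995 CPM against 16.5 CPM (5.91) in 48 of 58 cells. *Adcy1*, an adenylyl cyclase, had 807 CPM against 16 CPM (5.66) in 52 cells. *Cldn3*, a claudin of tight junctions, had 527 CPM against 13 CPM (5.34) in 45 cells. *Depp1* (6.47), *Tspan2*, a tetraspanin (5.73), *Slc45a3*, a solute carrier (5.66), *Col9a3*, a chain of collagen IX (5.30), *Ddit4l*, an inhibitor of mTOR signalling (5.27), and *Ralgps1*, an exchange factor for Ral (5.26), completed the 15. The same 15 genes had *Eppk1*-/- log2 ratios from 4.77 for *Slc45a3* to 8.71 for *Ttr* and *Ptgds*. The number of *Eppk1*-/- UMIs behind them was small, 63 for *Wfdc3*, 41 for *Adcy1* and 6 for *Ttr*. The fewest were 5 for *Ddit4l*, 4 for *Foxc2*, 3 for *Tmod2* and 1 for *Col9a3*. At 14.6 CPM, *Col9a3* lay under the 43.8 CPM that 3 counts would give.

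The genes with the lowest wildtype ratios had few or no UMIs in *Krt75* cells, apart from *Krt77* and *Krt10*. *Calm5*, a calmodulin-like gene, had 0 UMIs against 227 CPM, at least 33.8-fold lower when the limit is 3 counts over the set. By the same limit *Sema3d*, a semaphorin, was at least 18.6-fold lower, *Ndufa4l2* at least 18.3-fold, *Itga2*, an integrin subunit, at least 14.8-fold, *Gk*, glycerol kinase, at least 13.9-fold and *Shmt1*, an enzyme of folate metabolism, at least 8.76-fold. *Ptgs1*, cyclooxygenase 1, had 1 UMI. *Krt77*, a keratin of the suprabasal epidermis, had 65 CPM against 9371 CPM (log2 ratio -7.15, -7.75 to -6.65). *Elovl4*, which elongates the very long fatty acids of barrier lipids, had 5 UMIs (11.2 CPM against 673 CPM, -5.77). *Krt10*, one of the genes by which other keratinocytes were chosen, had 242 CPM against 11319 CPM (-5.54).

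The keratins of *Krt75* cells differed from those of other keratinocytes in both types. *Krt15*, a type I keratin of basal and bulge cells, was found in 57 of 58 wildtype *Krt75* cells, with a median of 52.5 UMIs and a highest of 462. It had 11217 CPM against 2637 CPM (log2 ratio 2.09, 2.05 to 2.13) in the wildtype and 11668 CPM against 2503 CPM (2.22) in the *Eppk1*-/- library. *Krt14*, the main type I keratin of basal cells, had 399 CPM against 3724 CPM (-3.22), with no UMI in the median cell and 52 in the highest, and 277 CPM against 3918 CPM (-3.78) in the knockout library. *Krt5*, its type II partner, had 2510 CPM against 4391 CPM (-0.81) and 4201 CPM against 4928 CPM (-0.23). Without the *Eppk1*-/- cell with hair cuticle transcripts, described below, the knockout level was 5690 CPM (0.21, 0.04 to 0.37). In the 9 remaining *Eppk1*-/- cells with at least 5 *Krt75* UMIs, a set chosen after seeing the data, it was 3139 CPM (-0.65, -0.91 to -0.40). *Krt1*, the type II keratin of the spinous layer, had 62.7 CPM against 1617 CPM (-4.66), and 75% of its 28 UMIs came from 1 cell. *Krt80* had 1862 CPM against 2110 CPM (-0.18), and *Krt90* had 36 UMIs in 13 cells (80.7 CPM against 0.647 CPM, 6.95), in 22.4% of them and so outside the ranking of measured genes. All 7 of *Dsp*, *Perp*, *Sfn*, *Krt5*, *Krt14*, *Krt15* and *Krt10* enter the choice of the other keratinocytes, which raises their levels there.

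Keratins of the hair shaft and inner root sheath were close to 0 in wildtype *Krt75* cells. Of the inner root sheath list, Krt25, Krt26, *Krt27*, Krt28, Krt72 and Krt73 had 0 UMIs and Krt71 had 2. *Tchh*, trichohyalin, had 8 UMIs. *Gata3*, a transcription factor of the inner root sheath and of the epidermis, had 182 CPM against 1080 CPM (log2 ratio -2.56). Of the cortex and cuticle list, Krt83 had 5 UMIs, Krt84 had 3 and *Krt82* had 2. *Hoxc13*, a homeobox gene that drives hair keratins, had 36 UMIs in 20 cells (80.7 CPM against 9.56 CPM, 3.09).

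One *Eppk1*-/- cell carried hair cuticle transcripts and did not resemble the rest. It held 17943 UMIs, 26.2% of all UMIs of the 13 *Eppk1*-/- *Krt75* cells. Its counts were 870 for *S100a3*, a calcium-binding protein of the cuticle, 230 for *Krt82*, 168 for *Krt32*, 197 for *Krt80* and 28 for *Krt27*. It held 12 *Krt75* UMIs and no UMI of *Krt6a*, *Krt15*, *Krt5*, *Fgf18* or *Wfdc3*. Its keratinocyte genes gave 0.661% of its UMIs, under the 1% set for other keratinocytes. Its droplet barcode was also in the wildtype library, where the cell had 1 *S100a3* UMI and no *Krt75* UMI. Without it, 12 *Eppk1*-/- cells with 50619 UMIs were left, and 1286 genes were at least 1 log2 unit higher than in other keratinocytes in place of 807. Values for 12 cells are used wherever levels are compared between genotypes.

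**Figure D2:**
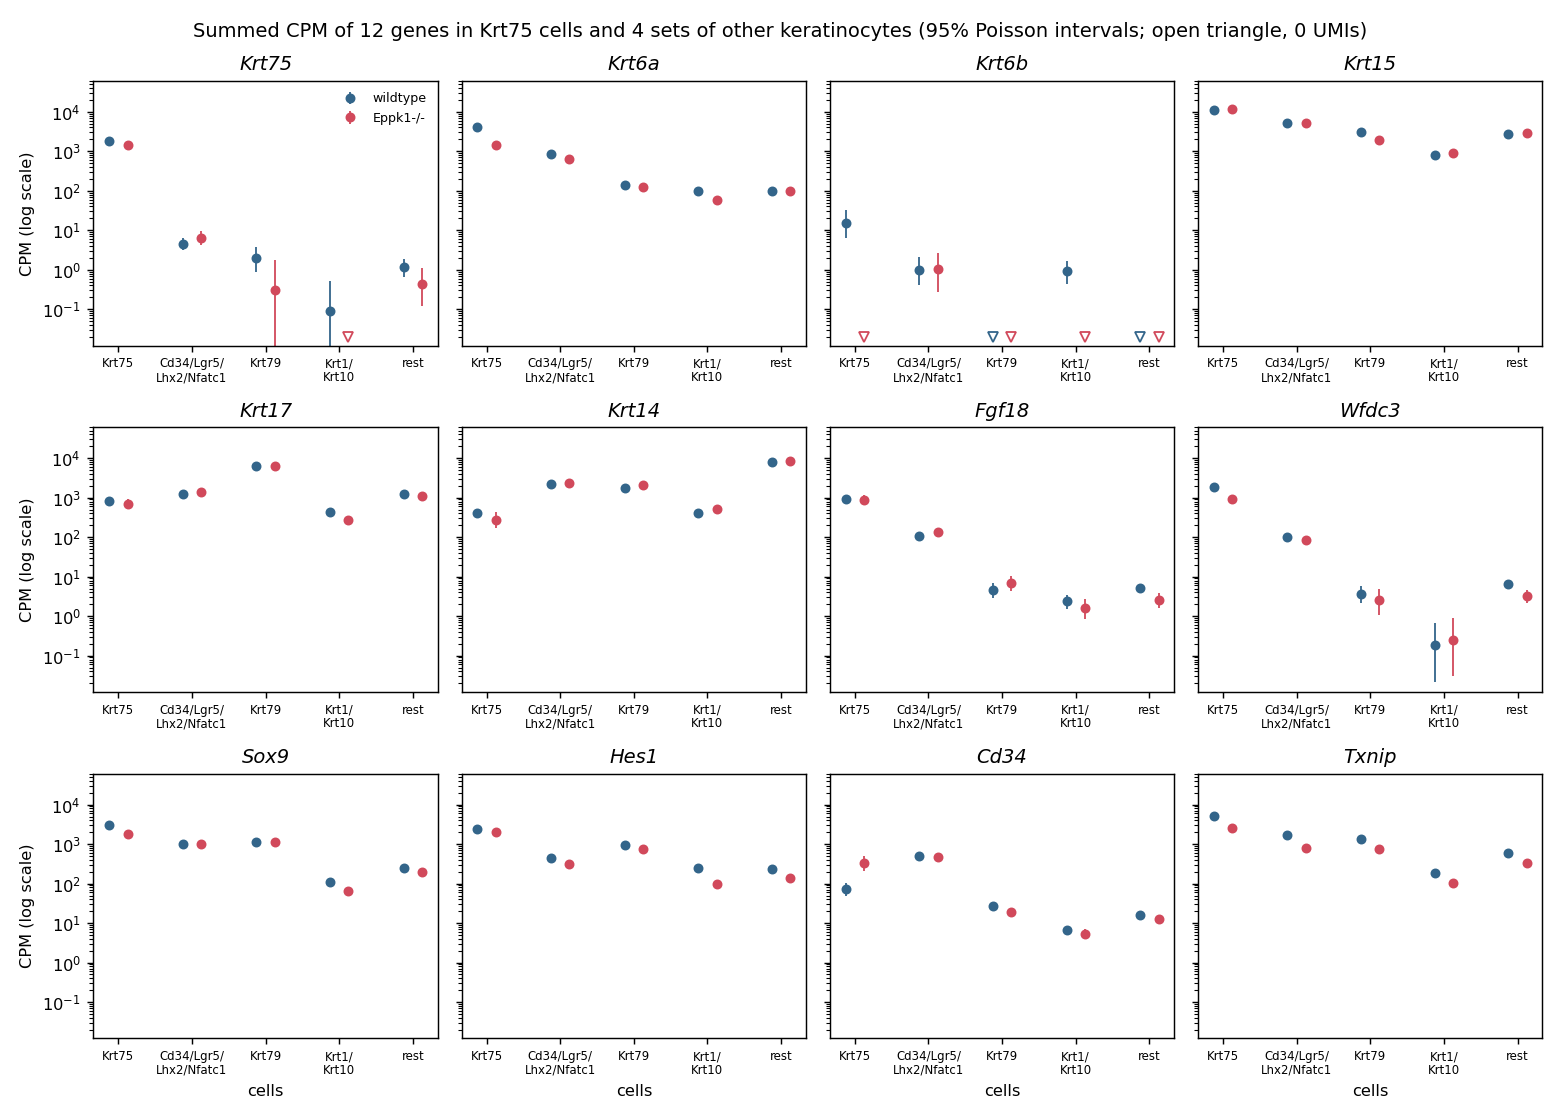
CPM summed over cells (y axis, log scale) of 12 genes in *Krt75* cells and in 4 sets of other keratinocytes (x axis), wildtype in blue and *Eppk1*-/- in red, with 95% Poisson intervals and open triangles at 0 UMIs. *Krt6a*, *Krt15*, *Fgf18*, *Wfdc3*, *Sox9*, *Hes1* and *Txnip* were higher in *Krt75* cells than in each of the 4 sets in both libraries, and *Krt17* was highest in *Krt79* cells.

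To place the *Krt75* cells among keratinocytes, the others were split in turn into cells with at least 3 *Krt79* UMIs (605 wildtype and 407 *Eppk1*-/-), cells with at least 3 UMIs of *Cd34*, *Lgr5*, *Lhx2* and *Nfatc1* together (1000 and 598), cells with at least 1% *Krt1* and *Krt10* (950 and 926) and the rest (2877 and 2100). The cells with *Cd34*, *Lgr5*, *Lhx2* or *Nfatc1*, genes of the bulge, stood nearest in the number of genes that differed, although this set was mixed, with 11478 CPM of *Krt10* against 242 CPM in wildtype *Krt75* cells. In the wildtype library 20.5% of 4585 genes lay at least 1 log2 unit away from them in either direction, against 25.8% of 4919 for *Krt79* cells, 39.1% of 5393 for *Krt1* and *Krt10* cells and 39.8% of 4512 for the rest. The shares for *Eppk1*-/- *Krt75* cells were 35.4%, 38.0%, 48.4% and 54.1%. They include the cell with hair cuticle transcripts, which held 26.2% of the UMIs of those cells. *Fgf18* had 941 CPM in wildtype *Krt75* cells, 110 CPM in the *Cd34*, *Lgr5*, *Lhx2* and *Nfatc1* cells, 4.54 CPM in *Krt79* cells, 2.38 CPM in *Krt1* and *Krt10* cells and 5.28 CPM in the rest. *Wfdc3* had 102 CPM and *Krt6a* 843 CPM in the *Cd34*, *Lgr5*, *Lhx2* and *Nfatc1* cells. *Lhx2* had 327 CPM in *Krt75* cells and 395 CPM in that set, which it helped to define, whereas *Cd34* had 71.7 CPM against 493 CPM. *Cldn3* was low throughout the others, with at most 44.7 CPM, in *Krt79* cells.

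Shares of cells with a UMI were compared after every cell was thinned to 2000 UMIs, which left 55 wildtype *Krt75* cells and dropped 3. *Krt6a* was then found in 96.4% of *Krt75* cells and 49.3% of the *Cd34*, *Lgr5*, *Lhx2* and *Nfatc1* cells (98.3% and 59.1% unthinned). *Wfdc3* was found in 90.9% and 21.6% (94.8% and 30.1% unthinned), *Fgf18* in 67.3% and 15.5% (79.3% and 20.0%) and *Cldn3* in 60.0% and 1.22% (77.6% and 2.40%). *Krt14* was found in 29.1% of thinned *Krt75* cells and 90.3% of the rest. Its share was 60.0% in the *Cd34*, *Lgr5*, *Lhx2* and *Nfatc1* cells, 55.0% in *Krt79* cells and 19.3% in *Krt1* and *Krt10* cells. Fibroblasts held *Krt6a* in 0.722% and *Wfdc3* in 0.144% of 1386 thinned cells. They held *Fgf18* in 2.74% and *Timp3* in 84.3%, so that *Timp3* was not limited to keratinocytes. *Fgf18* was not either, with a UMI in 10.1% of 2367 thinned *Eppk1*-/- fibroblasts (22.7% unthinned, and 9.24% in the wildtype).

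**Figure D3:**
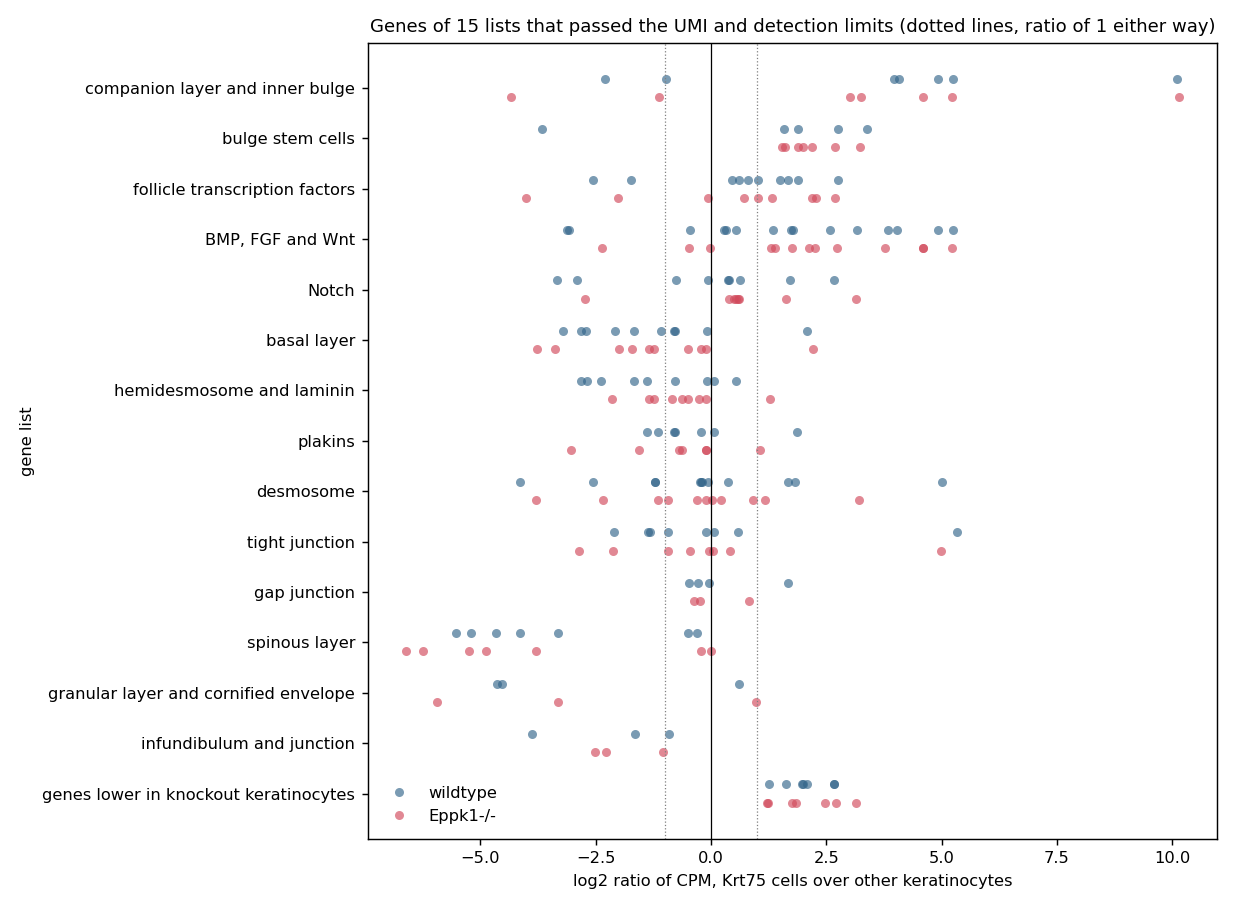
Log2 ratio of CPM in *Krt75* cells over other keratinocytes (x axis) for the genes of 15 lists (y axis) that passed the limits and had a UMI in *Krt75* cells, wildtype in blue and *Eppk1*-/- in red, with dotted lines at a ratio of 1 either way. Spinous layer genes lie far to the left apart from *Sbsn* and *Lgals7*, and all 7 genes of the lowest row lie right of 1 in both libraries.

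Genes of secreted signals and their targets lay on both sides of other keratinocytes. Of the 20 genes of the BMP, FGF and Wnt list with at least 50 UMIs, 9 were at least 1 log2 unit higher and 7 lower in the wildtype library, beside 20.8% and 13.4% of all genes under that limit. In the *Eppk1*-/- library 10 were higher and 2 lower, beside 24.9% and 11.1%. One of the 10, *Bmp4* (1.39), had all 13 of its UMIs in the cell with hair cuticle transcripts. Among ligands, beside *Fgf18* and *Bmp6*, *Bmp2* had 1956 CPM against 217 CPM (3.17) in 55 of 58 wildtype cells and *Bmp7* a log2 ratio of 1.34. Among receptors, *Fzd1*, a Frizzled receptor for Wnts, had 502 CPM against 30.5 CPM (4.04) and *Fzd7* a ratio of 1.74, while *Bmpr1a* (0.27), *Fgfr1* (0.32), *Fgfr3* (0.53) and *Fgfr2* (-0.45) lay within 1. Among targets of BMP signals, *Id1* had 1425 CPM against 99.7 CPM (3.84), *Id3* a ratio of 2.57 and *Id2* one of 1.77. The Wnt ligands *Wnt3* (4 UMIs, -3.12) and *Wnt10a* (3 UMIs) and the Wnt target *Axin2* (1 UMI) were close to 0.

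Of 9 measured Notch genes, 2 were higher and 2 lower in both libraries, beside 17.0% higher and 14.8% lower of all wildtype genes and 20.1% and 27.2% of all *Eppk1*-/- genes, so the count does not set the list apart. *Hes1*, a repressor induced by Notch, had 2391 CPM against 374 CPM (log2 ratio 2.68, 2.59 to 2.77) in 52 wildtype cells and 2057 CPM against 235 CPM (3.14) in the *Eppk1*-/- library. *Notch3*, a receptor, had 202 CPM against 61.4 CPM (1.72). The ligands *Dll1* (8 UMIs, -3.35) and *Jag2* (6 UMIs, -2.90) were the 2 lower genes in the wildtype library, and *Jag1* had a ratio of -0.07.

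Transcription factors of the follicle lay on both sides of other keratinocytes. *Sox9*, required for the outer root sheath and bulge, had 3108 CPM against 462 CPM (log2 ratio 2.75) in 56 of 58 wildtype cells and 1852 CPM against 406 CPM (2.19) in the *Eppk1*-/- library. *Lhx2* (1.90), *Nfatc1* (1.59) and *Tbx1* (3.39), which are expressed in the bulge, were higher in the wildtype library. Of the 12 genes on the bulge list, *Sox9*, these 3 and *Tcf7l1*, on 11 UMIs (1.92), were at least 1 log2 unit higher there, beside 20.8% of all genes with at least 50 UMIs. *Fst*, an inhibitor of activins (17 UMIs, -3.67), *Postn* (-2.28) and *Sfrp1* (-2.25) were lower, *Cd34* (-0.56), *Lgr5* (-0.45) and *Dkk3* (-0.53) lay within 1, and *Wif1* had 0 UMIs. In the knockout library *Fst* and *Wif1* had 0 UMIs and the other 10 were higher, beside 24.9% of all such genes. Of the 10, *Lgr5*, *Dkk3* and *Tcf7l1* held no more than 5 UMIs each, and in the 9 cells with at least 5 *Krt75* UMIs and no hair cuticle transcripts *Cd34* (0.33, -1.72 to 1.52) and *Postn* (-0.47, -1.68 to 0.38) had intervals that held 0. In that library 5 of the 12 reached the limit on cells only through *Krt75* cells. Of the 15 follicle factors, all with at least 50 UMIs, 6 were higher and 4 lower in the wildtype library, beside 20.8% and 13.4% of all genes under that limit, and 3 reached the limit on cells only through *Krt75* cells. *Runx1* (1.66), *Barx2* (1.5) and *Klf4* (1.03) were among the higher ones, and *Gata3* (-2.56) and *Klf5* (-1.74) were among the lower ones. In the *Eppk1*-/- library 9 of the 15 were higher and 2 lower, beside 24.9% and 11.1% of all genes under that limit. That count includes the cell with hair cuticle transcripts, and 2 of the 15 reached the limit on cells only through *Krt75* cells. *Runx1* had 2 UMIs in *Eppk1*-/- *Krt75* cells.

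Of 9 measured hemidesmosome and laminin genes, 5 were lower and none higher in the wildtype library, beside 14.8% lower of all genes. In the knockout library 3 were lower, near the 27.2% of all genes, and 1, *Cd151*, a tetraspanin, was higher. *Col17a1*, the transmembrane collagen of hemidesmosomes, had 314 CPM against 2238 CPM (log2 ratio -2.83) in wildtype *Krt75* cells and was found in 11 of them, and it had 963 CPM against 2293 CPM (-1.24) in *Eppk1*-/- cells. Of 10 measured basal layer genes, 6 were lower and 1, *Krt15*, higher in both libraries, and 3 of them chose the other keratinocytes. Beside them, 14.8% of all wildtype and 27.2% of all *Eppk1*-/- genes were lower, and 17.0% and 20.1% higher.

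Cell junction genes split by member. Of 12 measured desmosome genes in the wildtype library, 3 were higher and 4 lower, beside 17.0% and 14.8% of all genes, and 2 of the 12 reached the limit on cells only through *Krt75* cells. The desmosomal cadherin *Dsg3* had 854 CPM against 268 CPM (1.67), while *Dsg1a*, a cadherin of differentiating layers, had 87.4 CPM against 1559 CPM (-4.14). *Pkp2*, a plakophilin, had 27 UMIs in 16 cells (60.5 CPM against 1.91 CPM, 5.0). Of the 13 tight junction genes, all with at least 50 UMIs, 2 were higher and 4 lower in the wildtype library. Beside them, 20.8% and 13.4% of all genes under that limit were higher and lower. In the *Eppk1*-/- library 3 were higher and 2 lower, beside 24.9% and 11.1%. The 2 higher in the wildtype were *Cldn3*, which reached the limit on cells only through *Krt75* cells, and, on 18 UMIs, *Cldn7* (2.99). *Cldn1*, among the lower ones, had 576 CPM against 1499 CPM (-1.38) in the wildtype. *Gja1*, which encodes connexin 43, had 2297 CPM against 724 CPM (1.67) in wildtype *Krt75* cells. It was the only higher one of 4 measured gap junction genes, beside 17.0% of all genes. Of the 4, 1 reached the limit on cells only through *Krt75* cells. The *Eppk1*-/- ratio of *Gja1* was 0.83, with the cell with hair cuticle transcripts included.

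Plakins, the family of the deleted gene, were within 1 for 4 of 7 members in both libraries, with 1 higher and 2 lower, near the 17.0% and 14.8% of all wildtype and the 20.1% and 27.2% of all *Eppk1*-/- genes. *Macf1*, which links microtubules and actin, was the 1 higher member, with 1183 CPM against 327 CPM (log2 ratio 1.86) in the wildtype and 686 CPM against 334 CPM (1.05) in the *Eppk1*-/- library. *Dsp* (-0.21), *Plec* (0.06), *Ppl* (-0.79) and *Dst* (-0.78) lay within 1 in wildtype cells, and *Evpl*, a cornified envelope plakin, had -1.16. *Eppk1* (chromosome 15, 76101481 to 76120195) had 1167 CPM in wildtype *Krt75* cells, found in 54 of 58, against 3076 CPM in other keratinocytes (-1.40, -1.52 to -1.27).

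Genes of epidermal differentiation were low. Of 7 measured spinous layer genes, 5 were lower in both libraries, beside 14.8% and 27.2% of all genes, and *Sbsn* and *Lgals7* lay within 1. Of the 17 genes for the granular layer and cornified envelope, 3 were measured. *Lor*, loricrin, had 80.7 CPM against 2028 CPM (log2 ratio -4.63, but 1.08 with cells down to 2 *Krt75* UMIs), *Sprr1a* had 341 CPM against 7855 CPM (-4.52), and *Cdsn*, corneodesmosin, had 1085 CPM against 713 CPM (0.61). *Krt79*, a marker of the upper follicle, had 0 UMIs in all *Krt75* cells of both libraries, at least 105-fold lower in the wildtype at the limit of 3 counts. Of 3 measured genes of the infundibulum and junction, 2 were lower in the wildtype and 3 in the knockout library, beside 14.8% and 27.2% of all genes. Of 4 measured stress keratins and alarmins, *Krt6a* was higher and *Krt16* and *Sprr1a* were lower in both libraries. Beside them, 17.0% and 20.1% of all genes were higher and 14.8% and 27.2% lower. *S100a8* had 6 UMIs and *S100a9* had 0. Of the sebaceous gland list, *Scd1* (-3.00) and *Fasn* (-0.67) were measured. Of the cell cycle list, *Pcna* alone was measured (0.47), and *Mki67* and *Top2a* had 0 UMIs in the *Krt75* cells of both libraries.

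Markers of other cell types had few UMIs apart from fibroblast and myeloid ones. Of the *Krt75* cells, 11 of 58 wildtype and 1 of 13 *Eppk1*-/- cells held at least 2 UMIs of the myeloid, lymphoid, endothelial, melanocyte, muscle, Merkel cell and adipocyte markers together, beside 11.2% and 10.4% of other keratinocytes. The 4 lymphoid markers had 0 UMIs in wildtype *Krt75* cells, as did 2 of 3 endothelial, 3 of 4 melanocyte, 3 of 4 muscle and 2 of 3 Merkel cell markers, and 2 of 3 adipocyte markers, with 6 *Pecam1* UMIs, 1 of *Pmel*, 1 of *Tagln*, 1 of *Krt8* and 2 of Adipoq. The 6 fibroblast markers summed to 155 CPM in *Krt75* cells and 178 CPM in other keratinocytes, with *Pdgfra* and *Lum* at 0, a sum the collagen limit holds down. The 5 myeloid markers summed to 1427 CPM against 443 CPM, and *Cd74*, part of antigen presentation, had 567 of those UMIs. Of these, 562 lay in 3 cells with 29, 182 and 351 UMIs, and 2 of the 3 held *Ptprc*, the gene of the leukocyte antigen CD45. In the *Eppk1*-/- library *Cd74* had 1 UMI in *Krt75* cells and the 5 myeloid markers summed to 72.9 CPM. No doublet caller was run. Without those 3 cells, 841 genes were higher and 734 lower in the wildtype library.

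**Figure D4:**
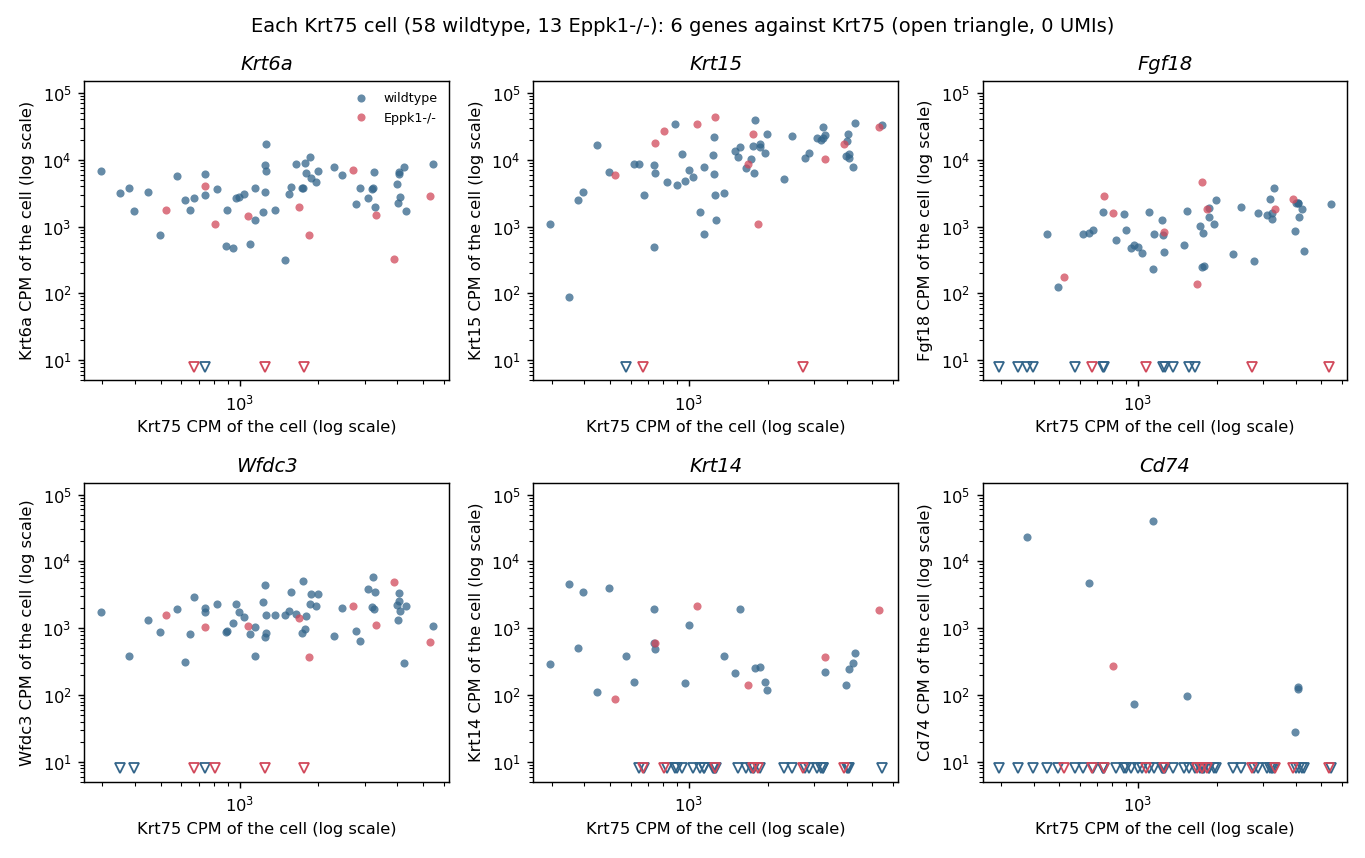
Each of the 58 wildtype (blue) and 13 *Eppk1*-/- (red) *Krt75* cells, with *Krt75* CPM of the cell on the x axis and CPM of 6 genes on the y axes (both log scales), and open triangles for cells with 0 UMIs. *Krt6a*, *Krt15* and *Wfdc3* are found in most cells, *Krt14* has 0 UMIs in the median cell and at most 52, and *Cd74* is above 1000 CPM in 3 wildtype cells.

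*Krt75* cells shared a core of genes. *Krt6a* and *Krt15* were both found in 56 of 58 wildtype cells, and both together with *Wfdc3* in 54. Among the 13 *Eppk1*-/- cells the counts were 9 and 8. *Fgf18* and *Wfdc3* were both missing in 3 wildtype cells and in 1 *Eppk1*-/- cell, the one with hair cuticle transcripts. The 3 wildtype cells held 4, 3 and 3 *Krt75* UMIs with 52, 8 and 26 UMIs of *Krt14*, so that they lay at or just above the limit of the rule.

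At that limit, the 14 wildtype cells with exactly 2 *Krt75* UMIs, outside the rule, had 1465 CPM of *Krt6a*, 353 CPM of *Fgf18* and 1037 CPM of *Krt14*. The 11 cells with exactly 3, inside it, had 3968 CPM, 240 CPM and 831 CPM. The 10 cells with exactly 4 had 3276 CPM, 456 CPM and 1594 CPM, the highest *Krt14* level of these sets. That rank rests on 1 cell with 52 *Krt14* UMIs and 1 with 32, and no other of the 10 held more than 5. The 37 cells with 5 or more had 4367 CPM, 1137 CPM and 125 CPM. *Fgf18* or *Wfdc3* was found in 10 of the 14, 9 of the 11, 9 of the 10 and all 37.

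The wildtype cells were also ranked by the share of *Krt75* in their UMIs and split into a lower set of 19 cells (296 to 998 CPM), a middle set of 20 and an upper set of 19 (1959 to 5447 CPM). *Fgf18* had 507 CPM in the lower, 777 CPM in the middle and 1608 CPM in the upper set, a log2 ratio of upper over lower of 1.66 (1.29 to 2.05). *Krt15* had 6644, 11216 and 16439 CPM (1.31) and *Hes1* 1384, 2271 and 3667 CPM (1.40). *Krt14* ran the other way with 914, 130 and 92.9 CPM (-3.25, -4.24 to -2.48). The 3 cells that lacked both *Fgf18* and *Wfdc3* were all in the lower set and held 86 of its 146 *Krt14* UMIs. Without them, a setting chosen after seeing the data, the lower set had 439 CPM (-2.20, -3.23 to -1.36), and the ratios of *Fgf18*, *Krt15* and *Hes1* were 1.43, 1.12 and 1.19. Of the 60 *Krt14* UMIs then left in the lower set, 32 lay in 1 cell with 4 *Krt75* UMIs. *Sox9* had 3074, 3102 and 3152 CPM and *Bmp6* 413, 293 and 400 CPM, with intervals of the ratio that held 0. The 5 genes with the highest upper over lower ratios were *Hspa1a*, a heat-shock chaperone (2749 against 12794 CPM, 2.22), *Ccn2*, a matricellular protein (457 against 2001 CPM, 2.12), *Hsph1*, another chaperone (1.99), *Plscr3* (1.97) and *Lzts2* (1.89). Of the 61 *Hsph1* UMIs of wildtype *Krt75* cells, 23 lay in 1 cell, and 42.1% of the cells held one in both the lower and the upper set. The 5 lowest, among genes with at least 50 UMIs and a UMI in at least 25% of the cells of either set, were *Vim*, vimentin (-6.74), *Icam1*, *H2-Aa* (-5.44), *Thbs1* (-5.06) and *Hmox1* (-3.97). *H2-Aa* and *Hmox1* were highest in the middle set, at 1350 and 1214 CPM, against 463 and 388 CPM in the lower set. *Cd74* had a ratio of -5.73, but a UMI in only 15.8% of the lower set, and *Icam1* had 0 UMIs in the upper set and 49 of its 53 in the lower set in those 3 cells. The median cell of the lower set had 7562 UMIs and that of the upper set 4550, and the part of depth in these ratios was not tested.

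**Figure D5:**
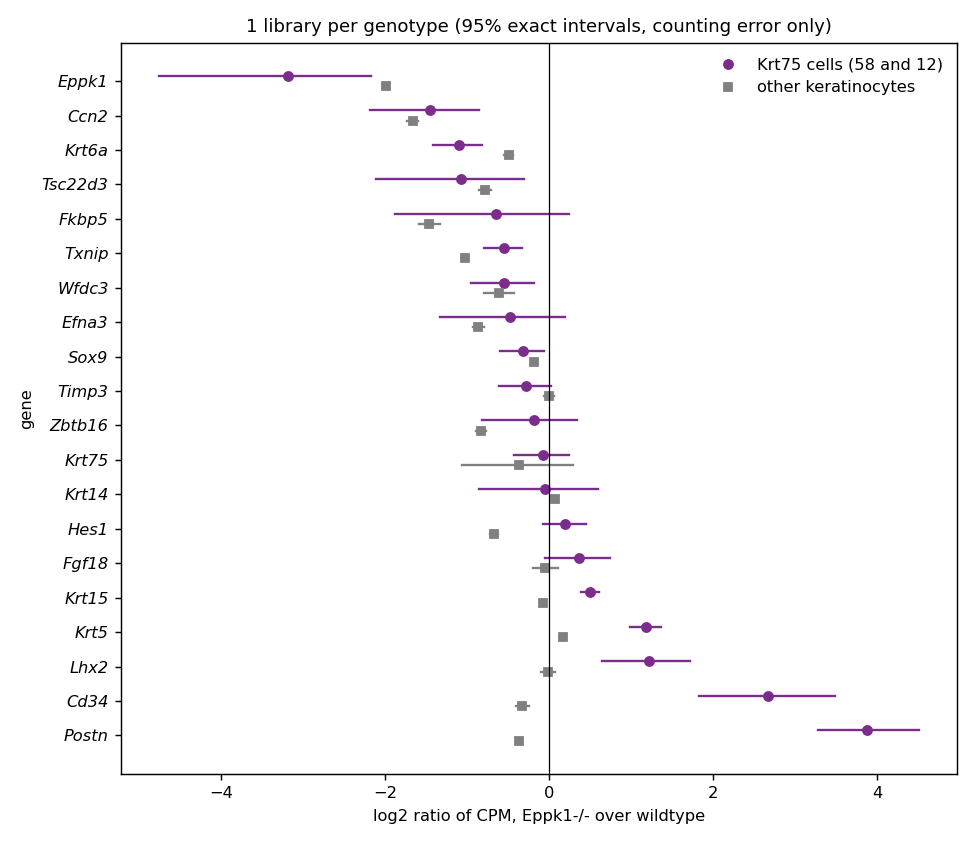
Log2 ratio of CPM, *Eppk1*-/- over wildtype (x axis), for 20 genes (y axis) in *Krt75* cells (purple circles, 58 wildtype and 12 *Eppk1*-/- cells) and in other keratinocytes (grey squares), with 95% exact intervals that cover counting error only. *Eppk1* and *Ccn2* were lower in both sets of cells, and *Cd34*, *Postn* and *Lhx2* were higher in the *Krt75* cells of the knockout library, with ratios at or under 0 in other keratinocytes. In the *Eppk1*-/- cells 19 of 23 *Cd34* UMIs and 53 of 62 *Postn* UMIs lay in the 3 cells with exactly 3 *Krt75* UMIs.

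Between the libraries, *Eppk1* itself came first as a check of the labels. It had 1167 CPM in wildtype and 119 CPM in the 12 *Eppk1*-/- *Krt75* cells (6 UMIs in 3 cells), a log2 ratio of -3.19 (-4.75 to -2.17). In other keratinocytes it had 3076 CPM and 777 CPM (-1.99). The gene was lower as labelled but not at 0, and whether its probes lie in the deleted stretch is not given in the sources used here.

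Genes of the *Krt75* cells were close in level between the libraries in part. *Krt75* had 1779 and 1679 CPM (log2 ratio -0.08, -0.42 to 0.24), which the rule constrains. *Bmp6* (-0.02, -0.85 to 0.65), *Adcy1* (0.02, -0.50 to 0.47) and *Fgf18* (0.37, -0.06 to 0.75) had intervals that held 0. *Krt6a* was lower in the *Eppk1*-/- cells, with 1936 against 4179 CPM (-1.10, -1.42 to -0.82), and *Wfdc3* had 1245 against 1835 CPM (-0.55). *Krt5* had 5690 against 2510 CPM (1.18, 0.99 to 1.37) and *Krt15* 15804 against 11217 CPM (0.50). *Lhx2* had a ratio of 1.21, *Cd34*, a surface protein of bulge stem cells, one of 2.67 (23 UMIs in 4 *Eppk1*-/- cells) and *Postn*, periostin, one of 3.88 (62 UMIs in 4 cells). In other keratinocytes the ratios were -0.49 for *Krt6a*, -0.61 for *Wfdc3*, 0.17 for *Krt5*, -0.01 for *Lhx2*, -0.33 for *Cd34* and -0.37 for *Postn*.

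Several of these higher levels came from the 3 *Eppk1*-/- cells with exactly 3 *Krt75* UMIs, at the limit of the rule. They held 157 of the 288 *Krt5* UMIs, 300 of 800 for *Krt15*, 19 of 23 for *Cd34* and 53 of 62 for *Postn*. Among cells with at least 5 *Krt75* UMIs, 37 wildtype and 9 *Eppk1*-/- without the one with hair cuticle transcripts, a comparison chosen after seeing the data, *Krt5* had 3139 against 2292 CPM (0.46, 0.18 to 0.72) and *Krt15* 11982 against 13217 CPM (-0.14, -0.28 to -0.0078). *Cd34* then had a ratio of 0.45 (-1.67 to 1.83) and *Postn* one of 1.10 (-0.20 to 2.13), both with intervals that held 0, as did that of *Lhx2* (0.67, -0.03 to 1.28). *Krt6a* kept its lower level (-1.01, -1.34 to -0.71). Relative to other *Eppk1*-/- keratinocytes, the 9 cells had log2 ratios of 0.33 for *Cd34* (-1.72 to 1.52), -0.47 for *Postn* (-1.68 to 0.38) and 2.81 for *Lhx2* (2.15 to 3.34), and the first 2 intervals held 0.

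A list of 7 genes, chosen because they were lower in *Eppk1*-/- keratinocytes of these same libraries, was higher in *Krt75* cells than in other keratinocytes for 7 of 7 members in both libraries, beside 17.0% and 20.1% of all genes. That count is a description, since 1 wildtype and 3 *Eppk1*-/- members reached the limit on cells only through *Krt75* cells and the choice of the list lowers the *Eppk1*-/- level in other keratinocytes. *Txnip*, an inhibitor of thioredoxin that responds to glucose, had 5008 CPM against 785 CPM (2.67) in the wildtype and 2509 CPM against 386 CPM (2.71) in the *Eppk1*-/- library. Between genotypes its log2 ratio was -0.56 (-0.79 to -0.34) in *Krt75* cells and -1.03 in other keratinocytes. *Ccn2* had -1.45 and -1.66, and 10 of its 21 *Eppk1*-/- UMIs lay in the 3 cells with exactly 3 *Krt75* UMIs. Among cells with at least 5, the comparison chosen after seeing the data, its ratio in *Krt75* cells was -2.29 (-3.37 to -1.50). *Tsc22d3*, a glucocorticoid target, had -1.08 and -0.78. *Fkbp5*, another glucocorticoid target, had -0.65 (-1.88 to 0.25) and -1.46, *Zbtb16* had -0.19 (-0.81 to 0.34) and -0.83, and *Efna3* had -0.48 (-1.33 to 0.19) and -0.86. *Hes1* had 0.19 (-0.08 to 0.45) in *Krt75* cells and -0.67 in other keratinocytes. The choice of the list fixes the direction in other keratinocytes but not in *Krt75* cells, of which 12 cells from 1 *Eppk1*-/- mouse were read.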

How the data were processed

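Whole dorsal skin of 1 wildtype and 1 *Eppk1*-/- mouse was profiled by probe-based single-cell RNA sequencing of fixed cells. The deposited values are UMI counts per gene and cell, which the authors made with Cell Ranger 8.0.1 on mm10 (GRCm38) from a mouse whole-transcriptome probe set. The wildtype matrix held 9179 cells and 77638793 UMIs, and the *Eppk1*-/- matrix 8811 cells and 65118304 UMIs. No cell annotation was used. A cell was used when its UMI total lay between 200 and 45000, its genes numbered between 100 and 7500 and mitochondrial transcripts gave no more than 10%. No doublet caller was run.

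UMIs were summed over the cells of each set and library, without the 13 mitochondrial genes, and given as CPM. Intervals were exact Poisson for CPM, exact conditional binomial for ratios and Clopper-Pearson for shares. For fold limits, and for counts with the UMI limit alone, a gene at 0 was set against a limit of 3 counts over the set. Counts of measured genes used ratios with 0.5 UMI added. Computations ran in Python 3.11.15 (scipy 1.17.1, pandas 2.3.3, numpy 2.4.6), with TMM factors from edgeR 4.0.16 and transcript alignment in Biopython 1.88. The ratio code was tested on simulated data.

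The named genes were *Krt75*, *Krt6b*, *Krt17* and the genes of the rule, the 15 highest and 10 lowest wildtype ratios, keratins found in at least 10% of wildtype *Krt75* cells, the 2 highest and 2 lowest members of each list, the 5 highest and 5 lowest genes by *Krt75* level, the plakins and 7 genes between genotypes. Members that also illustrate a role within a list were named after their values were seen. The cells and the gene lists were chosen with earlier results of these data known. Cell filters, the *Krt75* limit, scaling, thinning and detection limits were varied.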

Additional observations from a re-analysis of the deposited data

Results flagged for a closer look

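A few genes lay on opposite sides of other keratinocytes in the *Krt75* cells of the 2 libraries. The difference between libraries was not tested for any of them, since each genotype has 1 library. *Postn* had a log2 ratio of -2.28 in wildtype and of 1.53 in *Eppk1*-/- *Krt75* cells, where its UMIs lay in 4 cells. Among the 9 knockout cells with at least 5 *Krt75* UMIs and no hair cuticle transcripts, a set chosen after seeing the data, its ratio was -0.47 (-1.68 to 0.38). *Sfrp1*, a secreted Wnt inhibitor, had -2.25 and 1.61, and 1.38 (-0.18 to 2.39) in those 9 cells.

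For 4 other genes the knockout value came from the 1 cell with hair cuticle transcripts. *Tgm1*, a transglutaminase of the cornified envelope, had -1.45 and 1.22, and 12 of its 14 knockout UMIs were in that cell. *Gjb2*, which encodes connexin 26, had -2.22 and 1.96, with 28 of 30 UMIs in it. *Bmp4* had -3.37 and 1.39, with 13 of 13, and *Foxn1*, a factor of hair shaft differentiation, had -2.55 and 3.80, with 26 of 26. Without that cell the knockout ratios were -0.88 for *Tgm1* and -1.21 for *Gjb2*, and no UMI of *Bmp4* or *Foxn1* was left.

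*Cd74* had 1.99 and -4.37, and without the 3 wildtype cells that held most of its UMIs the wildtype ratio was -4.62.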

How the results depend on the processing

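No paired analysis was possible because the labels give no replicate numbers and each genotype has 1 library. In the wildtype library, in place of 793 higher and 692 lower, thinning to 2000 UMIs gave 329 and 332, a UMI in at least 10% of cells 1588 and 1164, no detection limit among genes with a UMI in *Krt75* cells 2370 and 1426, and a log2 ratio of 0.5 gave 1402 and 1414. In the *Eppk1*-/- library the number higher, 807, became 1286 when *Krt75* cells also needed the keratinocyte sum or when the deepest *Krt75* cell was left out (the same cell, the latter chosen after seeing the data), 1826 with a UMI in at least 10% of cells, 2683 with no detection limit and 1237 at a log2 ratio of 0.5. The number lower, 1091, became 456 on thinning and 1733 with a UMI in at least 10% of cells. The wildtype share of *Krt75* cells was 0.417% with at least 5 *Krt75* UMIs.

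Of single genes, *Lor* in the wildtype turned to 1.08 with at least 2 *Krt75* UMIs, *Tgm1* to 0.23 on thinning and to 0.0035 without the deepest 10% of cells, and *Gjb2* to 0.24 without those cells. *Cd74* turned to -4.62 without the 3 cells with at least 10 of its UMIs, a setting chosen after seeing the data. In the *Eppk1*-/- library *Cd34* turned to -0.20 and *Postn* to -1.0 with at least 5 *Krt75* UMIs (0.33 and -0.47 when the cell with hair cuticle transcripts, which held neither gene, was also left out, chosen after seeing the data), and *Bmp4* to -0.61 as a mean over cells. Apart from settings that leave out cells or genes by construction, the cause was not tested. The *Krt6b* ratio in the wildtype ran from 4.29 to 5.51. TMM moved the median of all genes by 0.09 in wildtype and by 0.25 in *Eppk1*-/- cells. At 68562 UMIs over 13 *Eppk1*-/- *Krt75* cells, a gene under 43.8 CPM could not be told from 0.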

Other observations

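Cells that shared the leading genes but not *Krt75* were also present, by limits chosen after the values were seen. In the wildtype library 159 cells held at least 3 *Wfdc3* UMIs, and 49 of them (30.8%, 23.7% to 38.6%) held at least 3 *Krt75* UMIs, 11 held 1 or 2 and 99 held none. In the *Eppk1*-/- library 55 cells held at least 3 *Wfdc3* UMIs, of which 7 (12.7%, 5.27% to 24.5%) held at least 3 *Krt75* UMIs and 45 none. The 110 wildtype *Wfdc3* cells outside the *Krt75* rule had 2004 CPM of *Krt6a* and 10155 CPM of *Krt15*, beside 4179 and 11217 CPM in *Krt75* cells. They had 1065 CPM of *Cd34* and 58.3 CPM of *Cldn3*, beside 71.7 and 527 CPM. Cells with at least 3 *Wfdc3* UMIs made up 1.79% of kept wildtype and 0.638% of kept *Eppk1*-/- cells.

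Genes of the early response to stimuli and of heat shock were described as a list of 11 chosen after values were seen, so its counts support nothing further. In the wildtype library 7 were at least 1 log2 unit higher than in other keratinocytes and none lower. Beside them, 17.0% of all measured genes were higher and 14.8% lower. In the *Eppk1*-/- library 7 were higher, beside 20.1%, and 2 lower, beside 27.2%. *Fos*, a subunit of AP-1, had 10189 CPM against 1704 CPM (2.58) in the wildtype, and *Egr1*, a zinc finger factor, had 11132 CPM against 2365 CPM (2.23). *Dusp1*, a phosphatase that acts on MAP kinases, had 1748 CPM against 3266 CPM (-0.90), and -1.68 in the knockout library, where *Hsph1* was the other lower gene, on 1 UMI. The tissue was dissociated warm before fixation, and the part of that in these levels was not tested.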
